A study of Mus musculus with 54 samples.

Results

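The integrin subunits are 10 genes, the α subunits Itga1, Itga3, Itga5, Itga6, Itga7, Itga9, and Itgav and the β subunits Itgb1, Itgb3, and Itgb5. They were chosen by name, as NCBI gene numbers in the deposited tables matched to mouse symbols, with no measured value used. They are 10 of 19653 genes listed in at least 1 table, and all 10 were listed in each of the 27 tables. In the mouse genome (GRCm38.p6) they lie at chr13:114958079-115101964 (Itga1), chr11:95044475-95076844 (Itga3), chr15:103344286-103366791 (Itga5), chr2:71786886-71858427 (Itga6), chr10:128933421-128958286 (Itga7), chr9:118606709-118901003 (Itga9), chr2:83722303-83806917 (Itgav), chr8:128685654-128733579 (Itgb1), chr11:104608000-104670476 (Itgb3), and chr16:33829665-33949338 (Itgb5).

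Integrins are cell surface receptors made of 1 α and 1 β subunit, and they tie the extracellular matrix outside the cell to the actin cytoskeleton within it. The β1 subunit pairs with many α subunits, among them α7, the main laminin-binding integrin α subunit of mature skeletal muscle fibres. Others are α3 and α6, which also bind laminins, α5, the classical fibronectin receptor, α1, a collagen receptor, and α9, which binds tenascin and other ligands. The αv subunit pairs with β3 and β5 to form vitronectin receptors. Myoblasts are known to exchange α5β1 for α7β1 as they fuse and mature, and loss of α7 causes a muscular dystrophy.

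RNA was sequenced from H2K mouse myogenic progenitors, cells kept dividing in culture by an interferon-inducible T antigen and turned into muscle by withdrawing interferon and lowering serum. At the same switch the cells moved to a higher temperature and less CO2, and from fetal bovine serum with chick embryo extract to horse serum. These changes of culture and differentiation itself cannot be told apart where day 0 is compared with a later day. There are 6 lines, namely wildtype, EMD-/y, which lacks emerin, a protein of the inner nuclear membrane, and EMD-/y transduced by lentivirus with wildtype emerin (+EMD) or with the emerin variants S54F, Δ95–99, and Q133H, which cause Emery–Dreifuss muscular dystrophy. Each line was sampled at 0, 24, and 48 h of differentiation, called days 0, 1, and 2, which gives 18 groups with 3 labelled replicates each and 54 samples in all. All cells grew on gelatin, with γ-interferon before differentiation, and the transduced lines were selected with puromycin, at doses that differed between lines, and kept in it. Wildtype and EMD-/y progenitors were plated at the same density, lower than that of the mutant lines, and the density for +EMD is not stated by name. Each construct is represented by 1 line, and 5 of the 6 lines derive from EMD-/y cells. Construct, line, selection, and any difference in plating density thus cannot be told apart where a transduced line is compared with wildtype. EMD-/y and wildtype progenitors carried no construct, and between them loss of emerin and line cannot be told apart. Comparisons with +EMD are between lines that were all transduced, except for EMD-/y itself.

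The deposited tables give 1 mean of normalised counts per group and no value per sample, so the spread between replicates is not given here, and a mean ± SD over replicates cannot be stated. A table held between 17220 and 17880 genes, and the means of a group summed to between 16.7 M and 21.1 M normalised counts. Emd, the gene removed, had means of 1886, 1758, and 1159 in wildtype progenitors on days 0, 1, and 2 and at most 2.76 in any of the other lines. The 4 transduced lines were no exception, so this row shows the EMD-/y background of those lines and gives no check of the introduced copies. Of the cell type markers, Des, an intermediate filament of muscle, had means of at least 9237 in every group, and Myod1, a myogenic transcription factor, of at least 6008. Pax7, the transcription factor of satellite cells, had means of 57.6 to 2122 in the other lines and of 3.11, 5.68, and 8.07 in Q133H on days 0, 1, and 2. All 12 muscle differentiation markers were above 10 in every group. At most 3 of 6 endothelial and 3 of 6 macrophage markers reached 10. Ptprc, which marks blood cells, was at most 1.90, Pecam1, which marks endothelium, at most 12.6, and Lum, a fibroblast proteoglycan, at most 0.493, while the fibroblast list was carried by Ly6a at 303 to 4675. Fewer cells of a type and less RNA per cell cannot be told apart in such samples.

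Sequence before a transcript start is shown for Itga9, Itgav, and Itgb5, whose change was called at both steps of differentiation and for which RefSeq (GRCm38.p6) gave an entry in the promoter table used here. Itga7 and Itgb3 were also called at both steps. Each line holds the 250 bases before an annotated transcript start, 5′ to 3′ on the gene's strand, and capitals mark E-boxes (CANNTG, the same on both strands), the core letters that myogenic factors such as MyoD recognise. Itga9 (chr9:118711442-118711691, plus strand), Itgav (chr2:83724147-83724396, plus strand), and Itgb5 (chr16:33829415-33829664, plus strand) read as follows. The Itgb5 window ends at the outermost annotated start of its gene. Those of Itga9 and Itgav lie before internal transcript starts, 104983 and 2094 bases inside the annotated gene, so they are not the sequence before its outermost start.
Itga9: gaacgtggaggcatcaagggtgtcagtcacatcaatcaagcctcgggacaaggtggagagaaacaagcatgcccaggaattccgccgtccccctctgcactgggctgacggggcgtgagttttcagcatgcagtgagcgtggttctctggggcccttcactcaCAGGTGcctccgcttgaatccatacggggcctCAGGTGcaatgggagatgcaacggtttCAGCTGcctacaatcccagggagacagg
Itgav: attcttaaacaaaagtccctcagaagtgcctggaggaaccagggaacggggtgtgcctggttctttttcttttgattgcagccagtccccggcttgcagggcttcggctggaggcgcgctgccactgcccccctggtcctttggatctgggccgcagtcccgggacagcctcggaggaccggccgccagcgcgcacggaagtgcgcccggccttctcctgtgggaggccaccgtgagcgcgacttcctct
Itgb5: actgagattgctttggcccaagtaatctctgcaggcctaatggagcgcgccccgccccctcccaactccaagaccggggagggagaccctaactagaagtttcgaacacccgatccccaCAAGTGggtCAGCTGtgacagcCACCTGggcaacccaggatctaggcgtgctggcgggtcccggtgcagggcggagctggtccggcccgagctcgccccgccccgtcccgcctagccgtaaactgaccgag
Itga9 had 3 E-boxes, whose first bases lie 87, 55, and 28 bases before the start, Itgb5 had 3, at 131, 122, and 109 bases before it, and Itgav had 0. Of all 32851 promoter windows of the same length, 66.2% held at least 1, so these letters are common, and a match is not a binding site.

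Levels were set on a common scale over the tables, which were normalised separately by the authors. Means of a group in different tables then differed by at most 21.2% for any subunit. Per kilobase of transcript, Itgb1 was the most abundant subunit in the median group (5562 normalised counts per kilobase), followed by Itga7 (2074), Itga6 (769), Itgb5 (626), Itga5 (599.9), Itgav (584), and Itga3 (394). Itgb3 (28.8), Itga1 (19.6), and Itga9 (9.35) were far lower. The ranges of Itga6, Itgb5, Itga5, Itgav, and Itga3 over the 18 groups overlap, so their order holds for the median only. Itgb1 spanned 2.13-fold from its lowest to its highest group, whereas Itga1 spanned 8.93-fold, Itgb3 12.8-fold, and Itga9 32.2-fold. The ranges over groups are thus widest for the 3 subunits with the lowest levels.

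**Figure D1:**
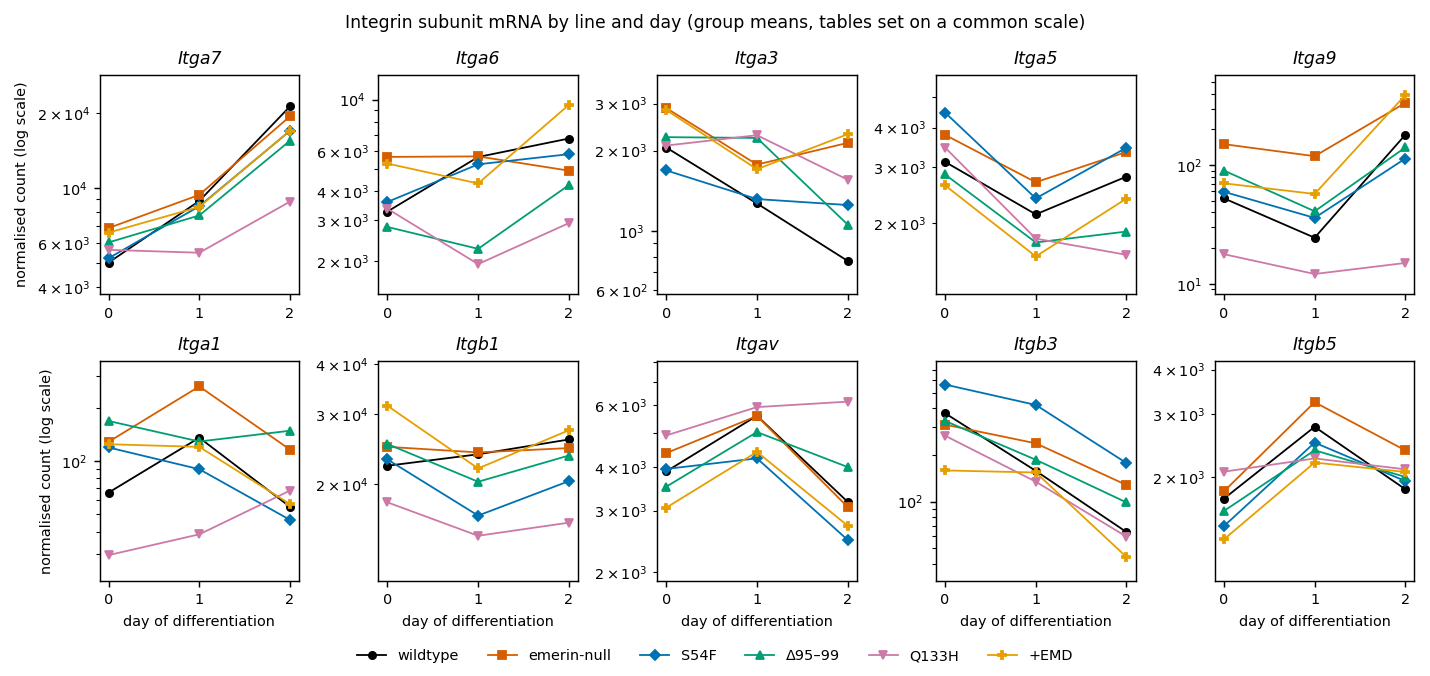
Mean normalised count (log axis) of each integrin subunit on days 0, 1, and 2 in the 6 lines, 1 point per group mean with tables set on a common scale; replicate values are not given in the tables, so no error bars are drawn. Itga7 reached between 15500 and 21310 on day 2 in every line other than Q133H, at 8814.

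The first question was how the subunits changed as progenitors differentiated. The log2 ratio of the later to the earlier day was taken within each table, after adding 1 to both means, and limma tested whether the 6 ratios, 1 per line, differed from 0, with Benjamini–Hochberg adjustment over all genes. As 5 of the 6 lines derive from EMD-/y cells, the 6 ratios are not fully independent, and the p-values over lines do not allow for this. Both steps use the same day 1 groups, so opposite changes at the first and second step are not independent of each other. A gene was called at an adjusted p under 0.05. From day 0 to day 1, 6 of the 10 subunits were called, beside 53.0% of the 12379 genes tested. Itga7, Itgav, and Itgb5 rose, as did 25.7% of all genes, and Itga5, Itga9, and Itgb3 fell, as did 27.2%. From day 1 to day 2, 6 of 10 were called again, beside 56.3% of 12256 genes. Itga7, Itga9, and Itgb1 rose (27.2% of all genes) and Itgav, Itgb3, and Itgb5 fell (29.0%). The median log2 change of the subunits was -0.13 at the first step and -0.05 at the second, beside -0.01 for all genes at both. The shares of subunits called are close to those of all genes, so the number of changed subunits is not particular to integrins, and the direction of each subunit is given below.

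Itga7 rose at both steps. Mean normalised counts of Itga7 on days 0, 1, and 2 were 5008, 8870, and 21310 in wildtype, and 6898, 9387, and 19440 in EMD-/y progenitors. They were 5216, 8442, and 16990 in S54F, 6037, 7754, and 15500 in Δ95–99, 5635, 5487, and 8814 in Q133H, and 6611, 8394, and 17040 in +EMD progenitors. Every line had its highest Itga7 mean on day 2. The mean change from day 0 to day 1 was 1.35-fold (log2 0.44 ± 0.11, SE, n = 6 lines, limma adjusted p = 0.0158), with 5 of 6 lines higher, and without S54F its adjusted p was 0.0505. From day 1 to day 2, Itga7 rose 2.00-fold (log2 1.00 ± 0.08, adjusted p = 0.000243) and was higher in 6 of 6 lines, between 0.67 in Q133H and 1.26 in wildtype progenitors on the log2 scale. An exact two-sided sign-flip test over the 6 lines gave p = 0.0625 for the first step and 0.03125 for the second, the smallest value 6 lines allow.

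Itga6 and Itga3, the other laminin-binding α subunits, were not called at either step with all 6 lines in the fit. On days 0, 1, and 2, Itga6 had means of 3273, 5638, and 6778 in wildtype, and 5644, 5672, and 4922 in EMD-/y progenitors. The other means were 3602, 5241, and 5800 in S54F, 2807, 2257, and 4259 in Δ95–99, 3366, 1938, and 2916 in Q133H, and 5282, 4332, and 9482 in +EMD progenitors. At the first step Itga6 was higher in 3 lines and lower in 3 (log2 -0.01 ± 0.21, SE, n = 6 lines, limma adjusted p = 0.971). It was higher at the second step in 5 of 6 lines (log2 0.47 ± 0.18, adjusted p = 0.0543), and the exception was EMD-/y; without EMD-/y the change was called (log2 0.61, adjusted p = 0.0230). For Itga3, the means on the 3 days were 2055, 1269, and 774 in wildtype, and 2887, 1774, and 2139 in EMD-/y progenitors. The transduced lines gave 1687, 1318, and 1252 in S54F, 2247, 2232, and 1058 in Δ95–99, 2090, 2285, and 1558 in Q133H, and 2839, 1705, and 2305 in +EMD progenitors. Itga3 was lower in 4 of 6 lines at each step (adjusted p = 0.0548 and 0.273, limma), and the first step was called without Q133H (log2 -0.50, adjusted p = 0.0184) or without Δ95–99 (log2 -0.47, adjusted p = 0.0473). Its day 1 to day 2 change ranged from -1.06 on the log2 scale in Δ95–99 to 0.44 in +EMD progenitors, so the lines differed in sign.

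Itga5, the fibronectin receptor subunit, fell at the first step. Itga5 had mean normalised counts of 3121, 2136, and 2806 in wildtype, and 3793, 2694, and 3354 in EMD-/y progenitors. The corresponding values were 4457, 2397, and 3459 in S54F, 2849, 1743, and 1886 in Δ95–99, 3461, 1792, and 1594 in Q133H, and 2633, 1576, and 2394 in +EMD progenitors. On day 1 it was 0.610 of its earlier level (log2 -0.71 ± 0.08, SE, n = 6 lines, limma adjusted p = 0.000502, exact sign-flip p = 0.03125), lower in 6 of 6 lines. It was then higher on day 2 than on day 1 in 5 of 6 lines, by log2 0.30 ± 0.11, which did not pass the test (adjusted p = 0.0514). The exception was Q133H, where Itga5 had its lowest mean on day 2; without Q133H the change was called (log2 0.39, adjusted p = 0.00907). The ratio of Itga7 to Itga5 per kilobase was between 1.28 and 2.75 on day 0 and between 5.37 and 8.99 on day 2, higher on day 2 in every line.

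Itga9 had the largest change of the 10 subunits at the second step. Mean normalised counts of Itga9 on days 0, 1, and 2 were 52.5, 24.5, and 180 in wildtype, and 150, 119, and 334 in EMD-/y progenitors. They were 59.6, 36, and 114 in S54F, 90.1, 40.9, and 141 in Δ95–99, 17.8, 12.1, and 15 in Q133H, and 70.3, 57.2, and 390 in +EMD progenitors. In Q133H progenitors Itga9 stayed between 12.1 and 17.8, lower on each day than in any other line. Itga9 first fell to 0.632 of its level (day 0 to day 1, log2 -0.66 ± 0.13, SE, n = 6 lines, limma adjusted p = 0.00534), lower in 6 of 6 lines. It then rose 3.39-fold from day 1 to day 2 (log2 1.76 ± 0.32, adjusted p = 0.00311), higher in 6 of 6 lines and by between 0.26 in Q133H and 2.79 in wildtype progenitors on the log2 scale. At means this low the added 1 makes the fold an underestimate.

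Itga1, the collagen receptor subunit, was not called at either step. On days 0, 1, and 2, Itga1 had means of 66.3, 135, and 55.1 in wildtype, and 128, 263, and 116 in EMD-/y progenitors. The other means were 119, 89.8, and 46.5 in S54F, 168, 129, and 148 in Δ95–99, 29.4, 38.6, and 68 in Q133H, and 124, 120, and 57.1 in +EMD progenitors. In wildtype and EMD-/y progenitors Itga1 was highest on day 1, in Q133H it was highest on day 2, and in S54F, Δ95–99, and +EMD it was highest on day 0. The limma adjusted p was 0.389 for the first step and 0.143 for the second, and without Q133H the second step was called (log2 -0.79, adjusted p = 0.0187).

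Itgb1, the common partner of these α subunits, had the narrowest range of levels. For Itgb1, the means on the 3 days were 22230, 23760, and 25890 in wildtype, and 24810, 24020, and 24630 in EMD-/y progenitors. The transduced lines gave 23060, 16650, and 20330 in S54F, 25220, 20260, and 23590 in Δ95–99, 17980, 14810, and 15980 in Q133H, and 31480, 21890, and 27310 in +EMD progenitors. On day 1 it was lower than on day 0 in 5 of 6 lines (log2 -0.26 ± 0.10, SE, n = 6 lines, limma adjusted p = 0.0582), and without wildtype this was called (log2 -0.32, adjusted p = 0.0261). It rose 1.14-fold from day 1 to day 2 (log2 0.18 ± 0.07, adjusted p = 0.0462), higher in 6 of 6 lines, between 0.03 and 0.32 on the log2 scale. That call was lost when wildtype, EMD-/y, S54F, Δ95–99, or +EMD was left out (adjusted p between 0.0565 and 0.134). Per kilobase, Itgb1 was between 1.11 and 1.81 times the sum of the 7 α subunits on day 0 and between 0.739 and 0.973 times on day 2.

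Itgb5 and Itgb3, whose products form vitronectin receptors with αv, changed in opposite directions at the first step. Itgav had mean normalised counts of 3885, 5604, and 3180 in wildtype, and 4383, 5597, and 3075 in EMD-/y progenitors. The corresponding values were 3949, 4234, and 2475 in S54F, 3514, 5034, and 3999 in Δ95–99, 4924, 5933, and 6150 in Q133H, and 3061, 4418, and 2718 in +EMD progenitors. Mean normalised counts of Itgb5 on days 0, 1, and 2 were 1738, 2765, and 1847 in wildtype, and 1822, 3242, and 2375 in EMD-/y progenitors. They were 1455, 2497, and 1947 in S54F, 1605, 2376, and 2000 in Δ95–99, 2069, 2254, and 2101 in Q133H, and 1336, 2195, and 2065 in +EMD progenitors. Both were highest on day 1 in every line, except for Itgav in Q133H, which was highest on day 2. From day 0 to day 1, Itgav rose 1.304-fold (log2 0.38 ± 0.08, SE, n = 6 lines, limma adjusted p = 0.00570) and Itgb5 rose 1.53-fold (log2 0.61 ± 0.10, adjusted p = 0.00226), each in 6 of 6 lines. From day 1 to day 2, Itgav fell to 0.673 of its level (log2 -0.57 ± 0.13, adjusted p = 0.00883), lower in 5 of 6 lines with Q133H the exception. Itgb5 fell to 0.811 of its level (log2 -0.30 ± 0.09, adjusted p = 0.0191), lower in 6 of 6 lines, a call lost without EMD-/y (adjusted p = 0.0600) or without S54F (0.0587).

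Itgb3 fell at both steps. On days 0, 1, and 2, Itgb3 had means of 368, 157, and 63.7 in wildtype, and 311, 236, and 128 in EMD-/y progenitors. The other means were 562, 416, and 176 in S54F, 329, 185, and 98.6 in Δ95–99, 264, 134, and 59.5 in Q133H, and 158, 154, and 44.1 in +EMD progenitors. S54F had the highest Itgb3 mean on each day. Itgb3 fell to 0.644 of its level from day 0 to day 1 (log2 -0.64 ± 0.16, SE, n = 6 lines, limma adjusted p = 0.0130), lower in 6 of 6 lines and by as little as 0.04 on the log2 scale in +EMD. By day 2 it fell to 0.439 of its day 1 level (log2 -1.19 ± 0.12, adjusted p = 0.000398), again lower in 6 of 6 lines. The ratio of Itgb5 to Itgb3 per kilobase was between 4.55 and 14.9 on day 0 and between 19.4 and 82.5 on day 2, and S54F had the lowest ratio on each day.

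**Figure D2:**
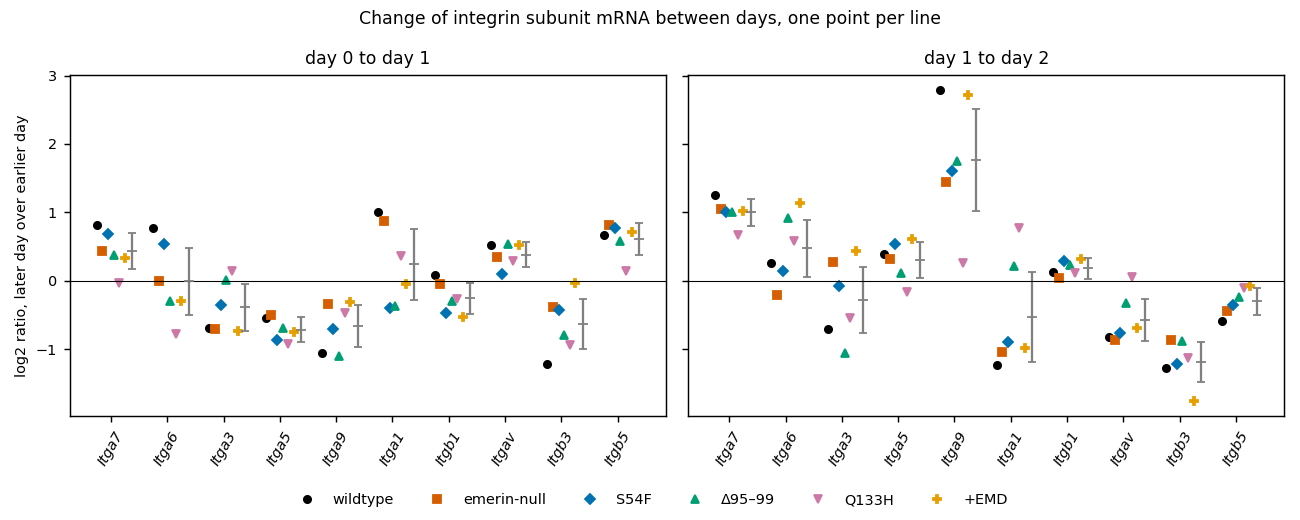
Log2 ratio of the later to the earlier day for each integrin subunit (left, day 0 to day 1; right, day 1 to day 2), 1 point per line, with the mean and its 95% confidence interval from limma in grey beside the points. All 6 points of Itga5, Itga9, and Itgb3 lie below 0 on the left, and all 6 of Itga7, Itga9, and Itgb1 lie above 0 and all 6 of Itgb3 and Itgb5 below 0 on the right.

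Within single tables, where 1 mean per group allows no test, 21 of 120 subunit values were past 2-fold between consecutive days (11 higher and 10 lower), or 17.5%, beside 17.4% of the values of all genes with a higher mean of at least 10. In wildtype progenitors, 3 subunits were past 2-fold from day 0 to day 1 (22.8% of all genes were) and 4 from day 1 to day 2 (19.9%). In EMD-/y, 0 and then 3 were (21.4% and 18.6% of all genes), and in +EMD, 0 and then 4 (17.3% and 20.5%). In S54F, 0 and then 3 were past 2-fold (16.6% and 20.5% of all genes), in Δ95–99, 1 and then 2 (14.0% and 14.2%), and in Q133H, 0 and then 1 (12.1% and 10.8%). Itga9 was past 2-fold in 7 of the 12 day tables, Itgb3 in 5, and Itga7 in 4, whereas Itga5, Itgav, Itgb1, and Itgb5 were past it in 0.

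The second question was whether a line differed from wildtype progenitors on the same day. The ratio to wildtype was taken within each of the 15 line tables, and limma tested whether the 3 ratios of a line, 1 per day, differed from 0. The days of a line are not replicates of 1 condition. The test sets the mean ratio over the 3 days against its variation between days, and does not test whether the days were alike. All 5 lines were compared with the same 3 wildtype means.

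In EMD-/y progenitors, 2 of the 10 subunits were called, Itga1 and Itga9, both higher, beside 11.2% of the 12563 genes tested. The median log2 ratio was 0.25 over the subunits and -0.0044 over all genes. Itga1 was higher than in wildtype by 0.72, 0.90, and 0.87 on the log2 scale on days 0, 1, and 2, a mean of 1.78-fold (log2 0.83 ± 0.07, SE, n = 3 days, limma adjusted p = 0.00982). The Itga1 mean of EMD-/y on the common scale depended on the table, at 115.9 or 140.4 on day 0 and 106.0 or 125.8 on day 2. The SE does not include this. Itga9 was higher by 1.41, 2.07, and 0.88, a mean of 2.74-fold (log2 1.45 ± 0.25, adjusted p = 0.0413). With only 2 days left in the fit, both calls were lost without day 1 (adjusted p = 0.0942 and 0.103), and that of Itga9 also without day 0 (0.110). Itga3 was higher on all 3 days, by 0.48, 0.48, and 1.46, and Itga5 by 0.28, 0.33, and 0.26, but neither passed the test (adjusted p = 0.116 and 0.0604). Itga6 was 0.78 above wildtype on day 0 and 0.46 below it on day 2. Itga7, Itgav, and Itgb1 stayed within 0.46 of wildtype on each day. Of the markers, 2 of 8 progenitor markers (Pax7 at 4.47-fold and Myf5 at 1.70-fold) and 2 of 12 muscle differentiation markers (Actc1 at 2.54-fold and Myh8 at 1.71-fold) were also called higher, and Pdgfra, a fibroblast marker, was called lower, at 0.608. The summed level of the 12 muscle differentiation markers was 107300 in EMD-/y and 51900 in wildtype progenitors on day 0, and 1191000 and 1040000 on day 2; the part of these markers in the differences was not tested.

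In the other lines, 0 of 10 subunits were called against wildtype, beside 12.6% of 12639 genes in +EMD, 6.87% of 12613 in S54F, 3.61% of 12842 in Q133H, and 5.0% of 12751 in Δ95–99. At an unadjusted p under 0.05 the limma counts were 2 subunits in +EMD, 2 in S54F, 2 in Q133H, and 1 in Δ95–99, and no other tool was run. In S54F, Itgb3 was higher by 0.59, 1.39, and 1.43 on the log2 scale on days 0, 1, and 2 (mean log2 1.14 ± 0.21, SE, n = 3 days, adjusted p = 0.0565), and without day 0 this was called (log2 1.41, adjusted p = 0.0167). In Δ95–99, Itga6 was lower by 0.20, 1.32, and 0.67 (mean log2 -0.73, adjusted p = 0.179). In +EMD, Itga9 was higher by 0.42, 1.19, and 1.10 (mean log2 0.90 ± 0.20, adjusted p = 0.0611) and Itga3 by 0.46, 0.43, and 1.57 (adjusted p = 0.128). These values were in 1 direction on all 3 days without passing the test. The same held for Itga5 in S54F and Itga3 in Δ95–99 (higher), and for Itga5 in Δ95–99 and Itga5, Itgav, and Itgb3 in +EMD (lower). The largest mean difference in Δ95–99 was that of Itga1 (log2 0.89, limma adjusted p = 0.212). It was 1.34, -0.07, and 1.41 on days 0, 1, and 2.

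Q133H had the widest departures from wildtype, over the subunits and over all genes alike. The median size of the log2 ratio, sign ignored, was 0.58 over the subunits and 0.35 over all genes. The signed medians were -0.43 and 0.0019. Itga9 was lower by 1.44, 0.91, and 3.47 on the log2 scale on days 0, 1, and 2, with means of 15 in Q133H and 180.2 in wildtype progenitors on day 2 (adjusted p = 0.169, limma, n = 3 days). Itgb1 was lower by 0.29, 0.69, and 0.69. Itga6 differed from wildtype by 0.06, -1.55, and -1.21, and Itga7 by 0.18, -0.71, and -1.26, so both were close to wildtype on day 0 and lower later; without day 0 the Itga6 difference was called (log2 -1.38, adjusted p = 0.0437). Itga1 was lower on days 0 and 1, by 1.06 and 1.76, and 0.34 higher on day 2. Itgav and Itga3 were 0.95 and 1.01 above wildtype on day 2. In the same line the summed level of the 12 muscle differentiation markers was 140900 on day 2, against 465500 in Δ95–99 and 810200 to 1191000 in the other lines. The 8 progenitor markers summed to 58060 in Q133H on day 2, the lowest of the 6 lines, a sum carried by Des (21830) and Myod1 (14660). The single progenitor markers differed in sign, with log2 ratios to wildtype, averaged over days, between -4.38 and 1.58 and 0 of 8 called (3 at an unadjusted p under 0.05). On day 2, Pax7 was at 8.07 in Q133H and 57.6 in wildtype, whereas Myf5 was at 660 and 146, Sdc4 at 4577 and 868, and Met at 2170 and 459. The macrophage markers summed to 330.0 in Q133H on day 2, the highest of the lines, with Cd14 and Cd68 above 10 and Ptprc at or near 0. The part of these markers in the integrin values was not tested.

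**Figure D3:**
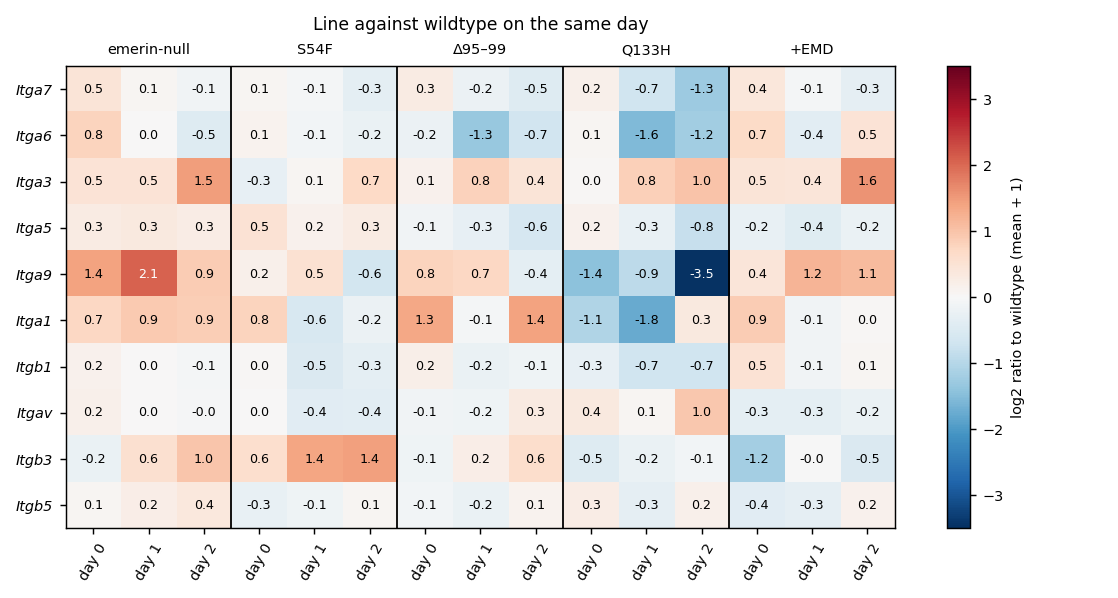
Log2 ratio of each line to wildtype progenitors on the same day for the 10 integrin subunits (rows) in 5 lines on days 0, 1, and 2 (columns), with the value, rounded, in each cell. The lowest value is that of Itga9 in Q133H on day 2 (-3.47), and Itga1 and Itga9 are above 0 on all 3 days in EMD-/y.

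Within single line tables, with no test, 20 of 150 subunit values were past 2-fold (11 higher and 9 lower), or 13.3%, beside 16.1% of the values of all genes. In EMD-/y, 1 subunit was past 2-fold on each of days 0, 1, and 2, beside 8.77%, 7.42%, and 7.63% of genes. In S54F the counts were 0, 1, and 1 (11.9%, 12%, and 10.6% of genes), in Δ95–99, 1, 1, and 1 (12.4%, 20.9%, and 22%), and in +EMD, 1, 1, and 2 (17.0%, 19.6%, and 18.4%). In Q133H they were 2, 2, and 4, beside 14.8%, 24.1%, and 33.5% of genes. Q133H held 8 of the 20 values, and 12 were left without that line. Itga9 was past 2-fold in 6 of the 15 line tables, Itga1 in 4, and Itga3, Itga6, and Itgb3 in 3 each.

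The third comparison set EMD-/y and the mutant lines against +EMD, the EMD-/y progenitors given wildtype emerin back, with the difference of the ratios to wildtype taken per day and tested over the 3 days. In S54F, 3 of 10 subunits were called, beside 11.7% of 12451 genes. Itgb3 was higher than in +EMD by 1.79, 1.41, and 1.95 on the log2 scale on days 0, 1, and 2, a mean of 3.29-fold (log2 1.72 ± 0.13, SE, n = 3 days, limma adjusted p = 0.0195). Itga5 was higher by 0.75, 0.59, and 0.53, a mean of 1.54-fold (log2 0.62 ± 0.09, adjusted p = 0.0347), and Itgb1 was lower by 0.45, 0.40, and 0.42, to a mean of 0.746 (log2 -0.42 ± 0.07, adjusted p = 0.0450). S54F thus had higher mRNA of Itgb3 and of Itga5 than +EMD on each day and lower mRNA of Itgb1. The calls of Itga5 and Itgb1 were lost without any 1 of the 3 days (adjusted p between 0.0701 and 0.267), and that of Itgb3 without day 0 (0.0687) or day 1 (0.130). Without day 1, 0 of all genes were called in this comparison, so no gene kept a call on the other 2 days. Itga3 was lower in S54F (log2 -0.66) and was called with a pseudocount of 5 (adjusted p = 0.0476) or with a higher mean of at least 50 (0.0406). In the same comparison, 5 of 12 muscle differentiation markers were called higher (median log2 0.69), among them Ckm at 2.75-fold and Myh8 at 2.51-fold. Pax7 and Myf5, of the 8 progenitor markers, were called lower, at 0.485 and 0.504 of +EMD. Ly6a of 3 fibroblast markers fitted was called higher at 2.17-fold and Cd68 of 2 macrophage markers fitted at 1.91-fold. The +EMD line itself departed from wildtype in these markers, with Pax7 and Myf5 called higher at 10.1-fold and 4.10-fold. In S54F, Myf5 was called higher than in wildtype, at 2.07-fold. The median log2 ratio to wildtype of the 12 muscle differentiation markers was -0.86 in +EMD and -0.04 in S54F. The part of these markers in the integrin calls was not tested.

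In Δ95–99, 1 of 10 was called against +EMD, beside 6.41% of 12519 genes. Itga6 was lower by 0.88, 0.95, and 1.15 on the log2 scale on days 0, 1, and 2, to 0.502 of +EMD (log2 -0.99 ± 0.09, SE, n = 3 days, limma adjusted p = 0.0211). The call was lost without day 1 (log2 -1.02, adjusted p = 0.146) or without day 2 (log2 -0.92, adjusted p = 0.0988). The difference was of like size in both fits, and 0 of all genes were called in either. In this comparison, 0 of 12 muscle differentiation markers were called (median log2 -1.11, 10 at an unadjusted p under 0.05), Ncam1 of the progenitor markers was called lower at 0.604, and Ly6a and Cd68 were called higher at 2.77-fold and 2.26-fold; their part in the Itga6 difference was not tested. Q133H also had lower Itga6 than +EMD on each day, by 0.62, 1.18, and 1.69, which did not pass the test (adjusted p = 0.0731). Lower Itga6 than in +EMD on all 3 days was thus seen in these 2 lines, and in S54F and EMD-/y it was lower on days 0 and 2 and on day 2, respectively. The +EMD line itself differed from wildtype in Itga6 by 0.68, -0.37, and 0.48 on days 0, 1, and 2. On day 0, Δ95–99 and Q133H differed from wildtype by only -0.20 and 0.06. On days 1 and 2 the differences from wildtype were -1.32 and -0.67 in Δ95–99 and -1.55 and -1.21 in Q133H.

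In Q133H and in EMD-/y, 0 of 10 were called against +EMD, beside 4.97% of 12488 genes and 6.90% of 12374 genes. At an unadjusted p under 0.05 limma gave 5 subunits in Q133H and 4 in EMD-/y. In Q133H the mean log2 difference was -2.84 ± 0.62 for Itga9 (adjusted p = 0.0750), -0.71 ± 0.13 for Itgb1 (0.0627), and 0.76 ± 0.20 for Itgav (0.0954). Of the 8 progenitor markers, 1 was called in Q133H against +EMD, with mean log2 differences of all 8 between -7.71 and 0.66. It was Pax7, at 0.00478 of +EMD (limma adjusted p = 0.0146), with means as low as 3.11 in Q133H. In +EMD, Pax7 was itself called higher than in wildtype, at 10.1-fold. The 12 muscle differentiation markers had a median log2 difference of -2.03 between Q133H and +EMD, with 0 called. In EMD-/y the mean log2 difference from +EMD was 1.01 ± 0.20 for Itgb3 (adjusted p = 0.0589) and 0.59 ± 0.12 for Itga5 (0.0587). Of 12 muscle differentiation markers, 5 were called higher in EMD-/y than in +EMD (median log2 1.23). Pax7 and Myf5, of the 8 progenitor markers, were called lower. The part of these markers in the integrin values of either line was not tested. For Itgb3, the difference from +EMD was positive on all 3 days in EMD-/y, S54F, and Δ95–99, and +EMD itself was below wildtype on each day, by 1.201, 0.019, and 0.516. All 4 lines share the +EMD means, so these differences are not independent of each other.

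**Figure D4:**
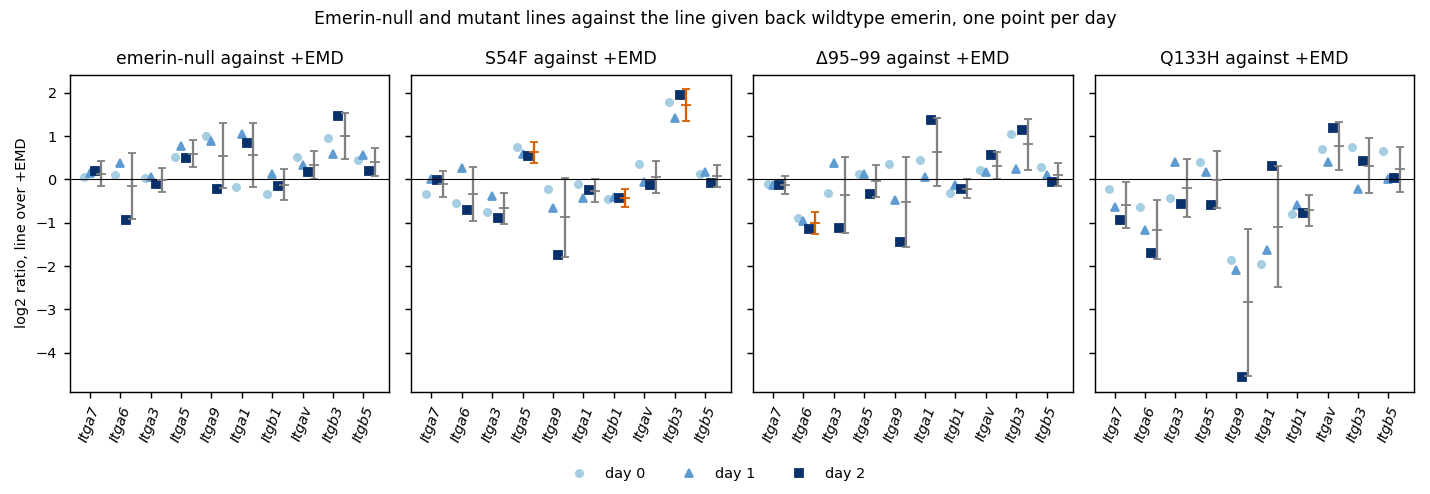
Log2 ratio to +EMD of EMD-/y, S54F, Δ95–99, and Q133H on days 0, 1, and 2 (points) for the 10 integrin subunits, with the mean over days and its 95% confidence interval from limma beside the points (orange where called, grey otherwise). In S54F, Itgb3 and Itga5 lie above 0 and Itgb1 below 0 on all 3 days, and in Δ95–99 Itga6 lies below 0 on all 3.

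Other genes of the integrin pathway were followed as lists, to be read beside the shares of all genes called, 25.7% higher and 27.2% lower from day 0 to day 1 and 27.2% higher and 29.0% lower from day 1 to day 2. Of 16 other integrin subunits, 9 passed the filter on low means from day 0 to day 1, with 2 called higher and 1 lower (3 of 9, beside 53.0% of all genes), and the median log2 change was -0.03, beside -0.01 for all genes. Itga10 rose 2.51-fold (limma adjusted p = 0.00722) and Itgb8 fell to 0.555 (0.00188), each in 6 of 6 lines. Itga2, a collagen receptor subunit, was the other called higher, at 5.15-fold. Its means were 0.78 to 2.55 on day 0 and 11.8 to 20.8 on day 1, so it passed the filter only through day 1. A rise was thus fixed in advance for Itga2, and its p-value tells nothing. From day 1 to day 2, Itgb6 rose 2.58-fold (0.00933) and Itgb7 fell to 0.453 (0.00655) of 10 fitted. Itga2 did not pass 39.8 in any group, so its fold rests on low means. Of the 11 comparisons tested, Itga4 was called in 1, S54F against +EMD, where it was 1.88-fold higher (0.0316).

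Of 22 integrin ligands, 19 were fitted between days. From day 0 to day 1, 0 rose and 8 fell (median log2 -0.15), beside 25.7% and 27.2% of all genes. Ccn2, a matricellular protein, fell to 0.137 of its level (limma adjusted p = 0.00129), Tnc, the tenascin that α9 binds, to 0.227 (0.00103), Spp1, osteopontin, to 0.228 (0.00139), and Thbs1, thrombospondin, to 0.448 (0.000433), each in 6 of 6 lines. At the second step, 3 rose and 10 fell (median log2 -0.37), beside 27.2% and 29.0% of all genes, and Npnt, nephronectin, rose 3.10-fold (0.000232). Against wildtype, 3 ligands were called higher and 1 lower in EMD-/y of 20 fitted, beside 11.2% of all genes called, among them Tnc at 2.42-fold (0.00524) and Fn1, fibronectin, at 1.302-fold (0.0364). In +EMD, 0 were called higher and 7 lower, beside 12.6% of all genes, among them Col1a2 at 0.029 of wildtype (0.0248) and Lama4, a laminin chain, at 0.168 (0.0277). In S54F 2 were called lower, in Δ95–99 1, and in Q133H 1, beside 6.87%, 5.0%, and 3.61% of all genes called.

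Of 26 adaptors and kinases, 22 were fitted between days. Between days 0 and 1, 2 rose and 8 fell (median log2 -0.16), beside 25.7% and 27.2% of all genes. Zyx, zyxin, fell to 0.542 (limma adjusted p = 0.00991), Flna, filamin A, to 0.607 (0.000491), and Tln1, talin 1, to 0.668 (0.000567), each in 6 of 6 lines. At the second step, 5 rose and 8 fell (median log2 -0.17), beside 27.2% and 29.0% of all genes, and Itgb1bp2, melusin, a muscle protein that binds the β1 tail, rose 11.4-fold (0.00160). Against wildtype, 0 of 23 were called in EMD-/y, with 3 at an unadjusted p under 0.05, beside 11.2% of all genes called, and 1 or 2 were called lower in each of the other lines, beside 3.61% to 12.6%. Itgb1bp2 was at 0.0804 of wildtype in +EMD (0.0353), and Tns1, tensin 1, was at 0.138 in Q133H (0.0223) and 0.327 in Δ95–99 (0.0344). The lowest mean log2 ratio to wildtype in this list was -3.636 in +EMD, -3.795 in Δ95–99, and -3.607 in Q133H, the last 2 not called. Values this low were thus not particular to +EMD.

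Of 13 tetraspanins and other integrin partners, 2 rose and 3 fell from day 0 to day 1 (median log2 0.01), and 4 rose and 5 fell from day 1 to day 2 (0.13). These are 5 and 9 of 13, beside 53.0% and 56.3% of all genes called. Plaur, the urokinase receptor, fell to 0.199 (limma adjusted p = 0.000322) and the tetraspanins Cd82 and Cd81 rose 2.67-fold (0.00265) and 2.10-fold (0.00017) at the first step. Cav3, the muscle caveolin, rose 7.28-fold (0.000584) and Cav1 fell to 0.426 (0.00354) at the second. For comparison, of the progenitor markers 1 rose and 1 fell of 7 fitted at the first step and 4 rose and 3 fell at the second, and of 12 muscle differentiation markers 4 rose at the first step (median log2 1.13) and 12 at the second (2.60).

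The genes whose log2 ratios over the 27 tables were most like those of each subunit were found by Pearson's r among 11793 genes. The tables share groups, so r describes likeness and has no test. Itgav was most like Tmem63b (r = 0.972) and Il6ra (0.951), Itga7 like Nudcd3 (0.960) and Fem1a (0.960), Itga6 like Dpep1 (0.939) and Tmcc1 (0.917), and Itgb5 like Ttpal (0.921) and Nxn (0.893). Itgb1 was most like Nr2f6 (0.918) and Dnm1l (0.899), Itga5 like Trmu (0.914) and Nt5m (0.912), Itga3 like Txndc5 (0.909) and Plekhf1 (0.901), and Itga9 like Alg3 (0.898) and Trmt61a (0.887). The values were lower for Itgb3, with Stk3 (0.847) and Cnrip1 (0.827), and for Itga1, with Herc2 (0.798) and Nav1 (0.779). Among the subunits themselves, r was 0.722 for Itga6 and Itga7, 0.713 for Itgav and Itgb5, and -0.805 for Itga9 and Itgav, the last being the lowest of the 45 pairs.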

How the data were processed

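RNA from H2K myogenic progenitors was sequenced on the DNBseq platform after poly-A selection. Reads were mapped to mm10 with HISAT2 and groups compared with DESeq2, according to the submitters' notes, and the versions are not given in the sources used here. The signal values as deposited by the authors are means per group of normalised counts, 2 groups to a table, and each table was normalised separately. The protocol gives 3 technical replicates for each of 2 biological replicates and the labels 3 replicates per group, so the labelled replicates may be technical. No column gives single samples (0 of them), so neither sequencing depth nor replicate spread is given here. Gene lengths in the tables were used for levels per kilobase. The authors' fold changes, p-values, q-values, and calls were not used.

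Symbols and coordinates came from RefSeq (GRCm38.p6, the build of mm10) by NCBI gene number. At most 1571 genes of a table were provider predictions without such a number, and at most 25 numbered genes had no symbol. Log2 ratios were taken within a table with a pseudocount of 1, among genes whose higher mean was at least 10 in every table used. Ratios over 3 days or 6 lines were tested against 0 with limma 3.58.1 in R 4.3.3, after the fit was tested on simulated data. Adjustment was by the Benjamini–Hochberg method over all genes, at a threshold of 0.05. The p-values set the mean ratio against its spread between days or lines, not between replicates. For levels, tables were put on a common scale by the medians of log2 differences between tables that share a group, fitted by least squares. The subunits and lists were chosen with earlier results of these data known. All 10 subunits were named, with the 2 genes most like each and up to 4 called genes per list and comparison with the largest mean change. Alternatives were a pseudocount of 5, no filter, a higher mean of at least 50, median centring, a fold threshold, and leaving out each day or line.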

Additional observations from a re-analysis of the deposited data

Results flagged for a closer look

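In 4 cases the difference between 2 lines' departures from wildtype passed its own test over the 3 days (limma, adjusted p under 0.05). On the log2 scale, the departure of S54F from wildtype minus that of +EMD was 1.72 for Itgb3, 0.62 for Itga5, and -0.42 for Itgb1, and that of Δ95–99 minus that of +EMD was -0.99 for Itga6. Each difference had 1 direction on 3 of 3 days. No group could be searched for a sample far from the others, since the tables hold means only.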

How the results depend on the processing

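No paired analysis was possible because the tables hold group means and no values per replicate. Counts of called subunits, first as reported, changed as follows, and the cause was not tested except that fewer days enter a fit or that a fold is also required. Against wildtype, EMD-/y went from 2 to 1 with no filter or with a 2-fold threshold and to 0 to 2 without 1 day, S54F from 0 to 1 with a pseudocount of 5 or a higher mean of at least 50 and to 0 to 1 without 1 day, and Q133H from 0 to between 0 and 1 without 1 day. Against +EMD, EMD-/y went from 0 to 2 with a higher mean of at least 50 and to 0 to 1 without 1 day, S54F from 3 to 4 (Itga3 added) with a pseudocount of 5 or a higher mean of at least 50, to 1 with no filter or with a 2-fold threshold, and to 0 to 1 without 1 day, Δ95–99 from 1 to 0 with a 2-fold threshold and to 0 to 1 without 1 day, and Q133H from 0 to between 0 and 2 without 1 day. The day counts of 6 and 6 became 0 and 3 with a 2-fold threshold. They were between 5 and 7 (first step) and 4 and 8 (second) without 1 line. At the first step a higher mean of at least 50 added Itga3 and left Itga9 unfitted, for 6. At the second, a pseudocount of 5 added Itga5, a higher mean of at least 50 added Itga5 and Itga6 and left Itga9 unfitted, for 7 each, and no filter removed Itgb1, for 5. Values past 2-fold went from 20 to 44 (lines) and from 21 to 55 (days) at 1.5-fold, and the 20 became between 12 and 18 without 1 line. In Q133H against wildtype the number of all genes called was between 89 and 1683, beside 464, and it was 0 in each comparison with +EMD without day 1, and in those of Δ95–99 and Q133H also without day 2.

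Of 110 mean changes of a subunit, 24 changed sign under an alternative, none of them called. Median centring turned Itga7 in +EMD against wildtype to 0.0038. Leaving out 1 day or line gave these ranges on the log2 scale: EMD-/y against wildtype, Itga6 -0.23 to 0.39, Itga7 -0.0244 to 0.27, Itgav -0.0237 to 0.0853, Itgb1 -0.0268 to 0.0854; S54F against wildtype, Itga1 -0.39 to 0.29, Itga3 -0.11 to 0.38, Itga6 -0.16 to 0.0174, Itga9 -0.23 to 0.36; Δ95–99 against wildtype, Itga7 -0.33 to 0.0398, Itgav -0.15 to 0.0963, Itgb1 -0.19 to 0.0269, Itgb5 -0.16 to 0.00302; Q133H against wildtype, Itgb5 -0.0578 to 0.23; +EMD against wildtype, Itga1 -0.0534 to 0.47, Itga7 -0.20 to 0.16, Itgb1 -0.0187 to 0.28; EMD-/y against +EMD, Itga3 -0.0408 to 0.0368, Itga6 -0.42 to 0.24; S54F against +EMD, Itga7 -0.17 to 0.00143, Itgav -0.0986 to 0.15; Δ95–99 against +EMD, Itga3 -0.72 to 0.0269, Itga5 -0.11 to 0.13; Q133H against +EMD, Itga5 -0.21 to 0.29; day 0 to day 1, Itga6 -0.17 to 0.14.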
